A study of Homo sapiens with 16 samples.

Results

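The transcripts of HCT116 cells treated with an inhibitor of the histone methyltransferase G9a were compared with those of the control made for that inhibitor. HCT116 is an established line of human colon cancer cells. The comparison rests on 4 of the 8 libraries of the series, 2 treated and 2 control, chosen by their source label alone. Each library was sequenced in 2 runs, so 8 of the 16 deposited samples belong to it, and its 2 runs were averaged into 1 value per library. The other 4 libraries are 2 with a small interfering RNA (siRNA) against G9a and 2 controls for that siRNA. They also enter the estimate of spread, and the siRNA controls serve here as a second reference.

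G9a, encoded by EHMT2, adds methyl groups to lysine 9 of histone H3, mostly in euchromatin, where the mark accompanies silent genes. It acts largely as a heterodimer with the related enzyme GLP, encoded by EHMT1. BIX 01294, the inhibitor, occupies the histone-binding groove of the catalytic domain of these enzymes, so it acts on the protein and not on the transcript. The series, by its title, asks how the mark bears on coordinated transcription and on the folding of chromosomes.

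Per the labels' protocols the inhibitor was BIX 01294 trihydrochloride hydrate at 0.5 µM for 72 h, and the siRNA was transfected with a lipid reagent at 10 nM for 72 h. The sources used here do not say what either control group received. The protocol also speaks of foreskin fibroblasts, but all libraries are labelled HCT116. The p-values below measure the spread between libraries of a group, pooled over all groups and moderated across genes. No label says that libraries within a group are separate cultures, so that spread may be technical only. Values are scaled FPKM (fragments per kilobase of transcript, relative to the mapped fragments of the run). Depth implied by the deposited confidence bounds was 2326000 to 6168000 fragments per run in the 8 runs of the inhibitor and its control. Inhibitor control replicate 2 was the shallowest of the 4 libraries.

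Epithelial markers of the labelled cell line were abundant, and some colon markers were absent. EPCAM, KRT8, KRT18 and KRT19 lay between 73.4 and 257 FPKM in all 8 libraries. CEACAM5 and MUC2 were listed at 0 in every library and CDX1 reached at most 0.0355 FPKM, while CDX2 was at 2.67 to 5.01. The adhesion protein CDH1 was at 0.623 to 2.01 FPKM and KRT20 at 0.704 to 1.61, VIL1, ELF3 and GRHL2 reached at most 1.49, and the mesenchymal factor ZEB1 was at 5.82 to 7.27. The fibroblast markers LUM, FAP, TWIST1 and TWIST2 were listed at 0 in every library, and 11 of 23 fibroblast or mesenchymal markers stayed under 0.1 FPKM throughout. Their summed level was 66.8 to 70.3 FPKM in inhibitor controls and 86.9 to 89.4 with the inhibitor, of which S100A4 made up 52.8 to 77.8. Of 17 immune markers 6 stayed under 0.1 FPKM, and the summed level was 13.0 to 15.5 FPKM in inhibitor controls and 10.8 to 12.4 with the inhibitor, most of it CD68, a lysosomal protein that epithelial cells also make.

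The 2 inhibitor control libraries stood apart from all others. Over 12846 genes their log2 values had a Pearson correlation of 0.9925 between the pair. Their correlation to the remaining 6 libraries was 0.957 to 0.974, and those 6 had correlations of 0.985 to 0.995 among themselves. The first principal component, with 62.4% of the variance, placed the inhibitor controls at -35.5 and -34.4 and the other 6 libraries between 6.32 and 20.9. The inhibitor libraries, at 6.32 and 8.07, were the nearest to their own controls and lay beside the siRNA controls at 10.6 and 8.30. The leading genes and most of the gene lists are therefore given also by the difference between the same inhibitor libraries and the siRNA controls. The 2 comparisons share the inhibitor libraries and are not independent. Which of the 2 control groups is nearer to untreated HCT116 cells was not tested.

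The test was limma, which fits a linear model to each gene and moderates the variances across genes. Of 12846 genes tested, 4686 (36.5%) differed between inhibitor and inhibitor control at an adjusted p under 0.05, and these are named as called below. Of them 2278 were higher with the inhibitor (17.7% of genes tested) and 2408 lower (18.7%). Large differences were mostly decreases. At least 2-fold, on the log2(FPKM + 1) scale of the main fit, 258 genes were called lower and 30 higher. At least 4-fold, 25 were lower and 5 higher. The 2-fold counts were 392 lower and 89 higher with a pseudocount of 0.1. They were 252 and 13 with no filter, and 204 and 18 at a mean of at least 5 FPKM. The median size was 0.52 on the log2 scale for genes called lower and 0.35 for genes called higher. Both inhibitor libraries lay above both controls in 4662 genes (36.3%) and below both in 4519 (35.2%). With inhibitor replicate 2 left out, 2670 genes were called. The share of called genes that were higher, 48.6% after scaling, was 34.8% with FPKM as deposited and 56.8% after quantile normalisation.

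For most called genes the inhibitor controls were the libraries set apart. In 256 of the 258 genes lower by at least 2-fold, both inhibitor controls lay above all 6 other libraries, the siRNA controls included. The same held for 2276 of all 2408 genes called lower, and in 2096 of the 2278 called higher both inhibitor controls lay below the other 6. Over all genes tested, both inhibitor controls lay above the other 6 in 25.8% and below them in 25.8%. Called genes were chosen by their difference from these same controls, so part of that separation follows from the choice. With the siRNA controls as reference, 1599 genes had an unadjusted p under 0.05 in limma. AC009133.15, the only gene called lower against these controls, is noncoding and was named after its values were seen. It passed the filter of a mean of 1 FPKM only through the siRNA controls, at 5.88 and 8.82 FPKM. It was listed at or near 0 in both inhibitor controls and both siRNA libraries, and at 0.688 and 0.00241 FPKM with the inhibitor. Its call was lost with a pseudocount of 0.1 (-4.68, adjusted p = 0.119), from the first run alone (-2.23, 0.284) and with no filter (0.257). In all, 5 genes were called (0.0389%), namely FGFBP1, KIAA0101, S100A4 and ANKRD10-IT1 higher and AC009133.15 lower. That count was 43 with siRNA control replicate 1 left out and 0 with inhibitor replicate 2 left out.

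**Figure D1:**
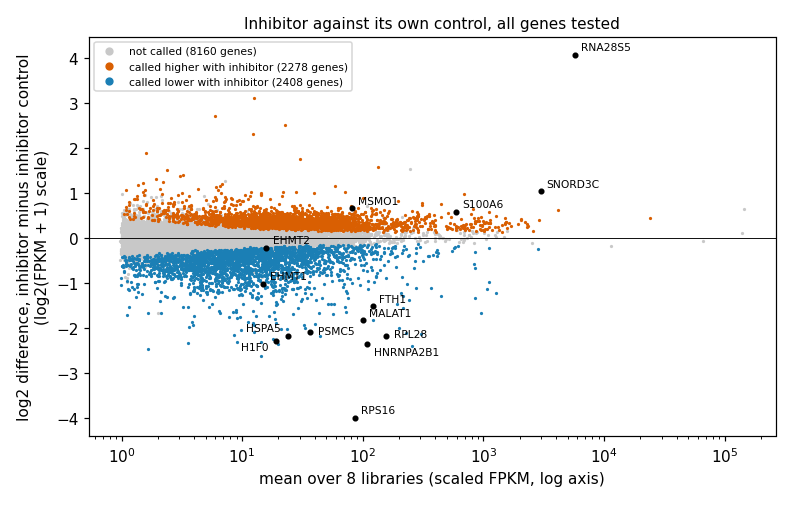
Each point is 1 of 12846 genes, with its mean level over 8 libraries (scaled FPKM, log axis) against the log2 difference between inhibitor and inhibitor control. The 2408 genes called lower reach further from 0 than most of the 2278 called higher, and black points mark 14 named genes.

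The messenger RNAs of the targeted enzymes were measured first. EHMT2 (chromosome 6, 31847536 to 31865464 in hg19) was at 24.7 and 21.0 FPKM in inhibitor controls and at 19.7 and 18.9 with the inhibitor. The difference was -0.23 ± 0.09 on the log2 scale (SE, limma adjusted p = 0.0827) and did not pass. It was -0.35 without inhibitor control replicate 2, where it passed (adjusted p = 0.0359), and -0.12 without inhibitor control replicate 1 (adjusted p = 0.418). Against the siRNA controls, at 15.9 and 17.8 FPKM, it was 0.19, in the other direction. The EHMT2 transcript is no check of an inhibitor of the protein, so the labels of the treated libraries have no check of this kind. EHMT1 (chromosome 9, 140513444 to 140764468) was at 25.5 and 24.0 FPKM in inhibitor controls and at 10.9 and 12.4 with the inhibitor, with no overlap. It was lower by a log2 of -1.03 ± 0.12 (adjusted p = 0.000353), but the siRNA controls stood at 12.2 and 15.8 FPKM, and against them the difference was -0.24 (adjusted p = 0.446).

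The 12 genes with the smallest p among those called lower, at a mean of at least 5 FPKM, were RPL28, PSMC5, H1F0, RPL8, FABP5, HNRNPA2B1, NUDC, HNRNPM, NOB1, BANF1, RPS21 and FTH1. RPL28, a protein of the large ribosomal subunit (chromosome 19, 55896713 to 55914612), was at 378 and 421 FPKM in inhibitor controls and at 87.9 and 86.5 with the inhibitor. The siRNA controls were at 74.6 and 77.5 FPKM and the siRNA libraries at 64.1 and 63.2, so the inhibitor controls were the 2 libraries set apart. The log2 difference was -2.18 ± 0.06 (SE, limma adjusted p = 3.94e-07). PSMC5, an ATPase of the proteasome base, was at 89.8 and 87.8 FPKM against 20.1 and 19.7, and at 19.4 and 22.2 in the siRNA controls. H1F0, the replacement linker histone of slowly dividing cells, was at 53.7 and 49.5 FPKM against 9.44 and 9.92, and at 8.45 and 10.1 in the siRNA controls.

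BANF1, which binds DNA at the nuclear envelope, was at 62.7 and 58.6 FPKM in inhibitor controls and at 12.8 and 12.02 with the inhibitor (log2 -2.20 ± 0.11). FTH1, the heavy chain of the iron store ferritin, was at 251 and 232 FPKM against 84.1 and 82.8 (-1.52 ± 0.08). The fatty acid carrier FABP5 differed by -1.46, the dynein regulator NUDC by -1.92 and NOB1, an endonuclease of ribosome assembly, by -1.74. RPL8 and RPS21, further ribosomal proteins, differed by -1.35 and -1.29. The adjusted p of these 12 genes lay between 3.94e-07 and 1.05e-05. Relative to the siRNA controls the same 12 genes were at log2 differences of -0.14 for NOB1 to 0.47 for HNRNPA2B1, and none passed. Among them FTH1 was at 0.00 and H1F0 at 0.06.

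The 12 genes with the smallest p among those called higher were MSMO1, SCARNA2, GAS5, NDUFAF4, HIST3H2A, GLO1, CYP51A1, FGFBP1, PPA2, JTB, RPS23P8 and UQCRQ. MSMO1, a demethylase of cholesterol synthesis (chromosome 4, 166248775 to 166264312), was at 57.5 and 54.7 FPKM in inhibitor controls and at 87.5 and 90.1 with the inhibitor. It differed by 0.65 ± 0.06 on the log2 scale (SE, limma adjusted p = 7.69e-05), and the siRNA controls were at 88.4 and 83.5 FPKM. CYP51A1, the lanosterol demethylase of the same pathway, was at 88.0 and 89.1 FPKM against 127 and 130, and at 128 and 120 in the siRNA controls. In both sterol genes the inhibitor libraries overlapped the siRNA controls.

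GAS5, a noncoding host of small nucleolar RNAs, was at 287 and 285 FPKM in inhibitor controls and at 397 and 412 with the inhibitor (log2 0.50 ± 0.05, limma adjusted p = 0.000124). GLO1, which detoxifies methylglyoxal, was at 108 and 110 FPKM against 159 and 172 (0.60). The assembly factor NDUFAF4 of respiratory complex I differed by 0.65, the complex III subunit UQCRQ by 0.54 and the mitochondrial pyrophosphatase PPA2 by 0.63. SCARNA2, a guide RNA of Cajal bodies, was higher by 0.98 and the replication histone gene HIST3H2A by 0.89. RPS23P8 is a pseudogene of a ribosomal protein and may share reads with its parent gene. Relative to the siRNA controls, 11 of these 12 were at log2 differences of -0.14 to 0.12 and did not pass. The exception was FGFBP1, at 0.64, which is described with its promoter below.

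**Figure D2:**
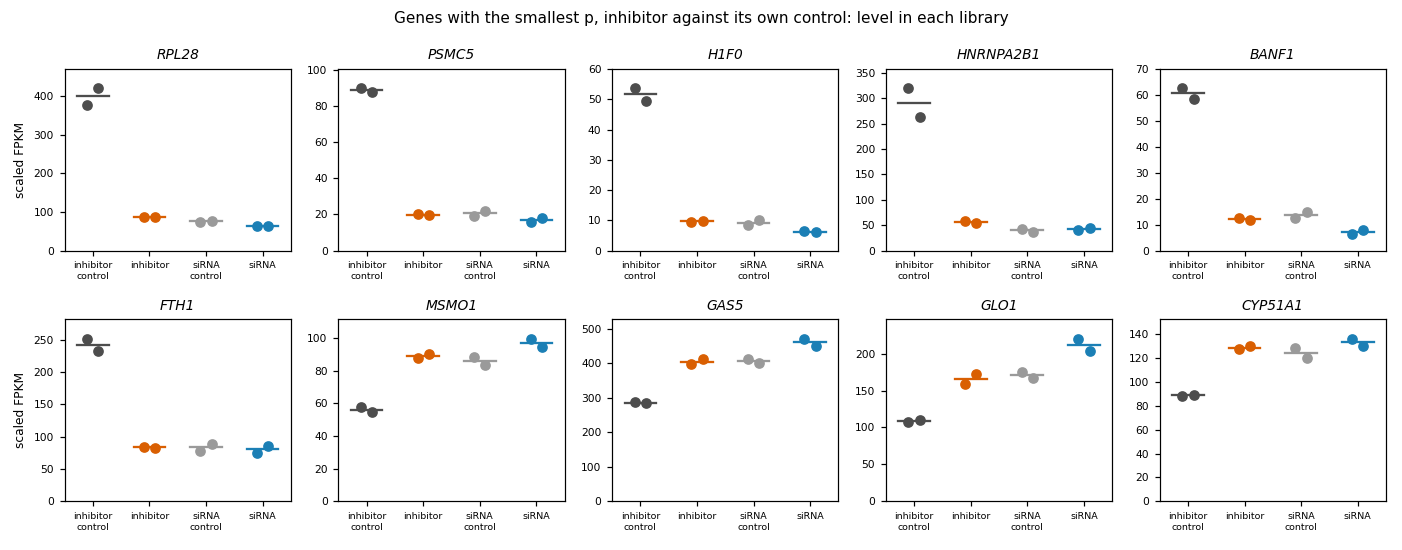
Scaled FPKM of 10 genes in each of the 8 libraries, with bars at the mean of the 2 libraries of a group. In the 6 genes that were lower the inhibitor controls are the high group, and in the 4 that were higher they are the low group, while the inhibitor libraries lie near the siRNA controls.

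Where leaving out 1 library moved a count by more than 1.5 times, it is named below as control 1 or 2 (inhibitor control replicates) or treated 1 or 2 (inhibitor replicates). List counts stand beside the 18.7% of all genes called lower and the 17.7% called higher. These shares depend on level and the lists were not matched for it. In the highest quintile of mean level 42.1% of genes were called higher and 20.2% lower, in the lowest 3.11% and 9.58%. A list of abundant genes can thus exceed the shares of all genes by level alone. Among the lists, hnRNP proteins had the most members called lower, 20 of 24. The hnRNP proteins package nascent transcripts and steer splice-site choice. Of 24 members tested, 20 were called lower, 2 higher and 2 not called, with a median log2 difference of -0.62 beside 0.01 over all genes, and with 1 library left out 16 to 17 were called lower. HNRNPA2B1 (chromosome 7, 26229547 to 26241149) was at 320 and 263 FPKM in inhibitor controls and at 57.8 and 53.6 with the inhibitor (log2 -2.36 ± 0.10, limma adjusted p = 3.78e-06). HNRNPM differed by -1.70 and PCBP1, which binds poly(C) RNA, by -2.05. HNRNPC, at 0.21, and HNRNPLL, at 0.24, were the 2 called higher, a count of 0 without control 1 and of 1 without each of the others. The list's median was 0.04 against the siRNA controls, where no member passed.

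Among 23 SR splicing factors and their kinases, 12 were called lower, 2 higher and 9 not called, with a median of -0.29. SRSF6 was at 93.0 and 93.0 FPKM in inhibitor controls against 60.1 and 61.6 (log2 -0.60), SRRM1 differed by -1.13 and the kinase CLK2 by -0.80. The kinase CLK1 was higher by 0.39. Of 41 spliceosomal snRNP proteins, 17 were lower and 10 higher, with a median of -0.13. PRPF8, the core scaffold of the spliceosome, was at 59.8 and 52.3 FPKM against 18.1 and 18.7 (log2 -1.55). SNRPA1 of the U2 particle differed by -2.31 and U2AF1, which reads the 3' splice site, by -2.03, while the small Sm protein SNRPG was higher by 0.36 and LSM5 by 0.42, and 4 of this list were higher with FPKM as deposited. With the siRNA controls as reference their medians were -0.02 and -0.04.

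Noncoding RNAs of the nucleus included 3 called lower, while among hosts of small nucleolar RNAs no member was called lower. MALAT1, a nuclear speckle RNA (chromosome 11, 65265233 to 65273940), was at 230 and 189 FPKM in inhibitor controls and at 59.6 and 55.4 with the inhibitor (log2 -1.84 ± 0.14, limma adjusted p = 3.82e-05). The neighbouring paraspeckle RNA NEAT1 was at 15.3 and 12.6 FPKM against 4.83 and 2.94 (-1.63), and TUG1 differed by -0.68. In the siRNA controls MALAT1 was at 63.2 and 68.7 FPKM and NEAT1 at 3.69 and 4.18, beside the inhibitor libraries. Of 12 nuclear long noncoding RNAs tested 3 were lower and 2 higher, with a median of 0.09 and of -0.02 against the siRNA controls. None was higher without control 1 or control 2, and 1 without treated 1 or treated 2. Of 18 snoRNA host genes 7 were higher, none was lower and 11 were not called, with a median of 0.32, and 4 were higher without treated 2. ZFAS1 was higher by 0.49 and SNHG3 by 0.61. SNHG3 was at 3509 and 3011 FPKM in inhibitor controls, 4453 and 5521 with the inhibitor and 3344 and 3444 in the siRNA controls, where the difference was 0.55 (adjusted p = 0.136). The host genes had a median of 0.13 against the siRNA controls. Called were 38.9% of the host genes and 41.7% of the nuclear long noncoding RNAs, beside 36.5% of all genes.

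**Figure D3:**
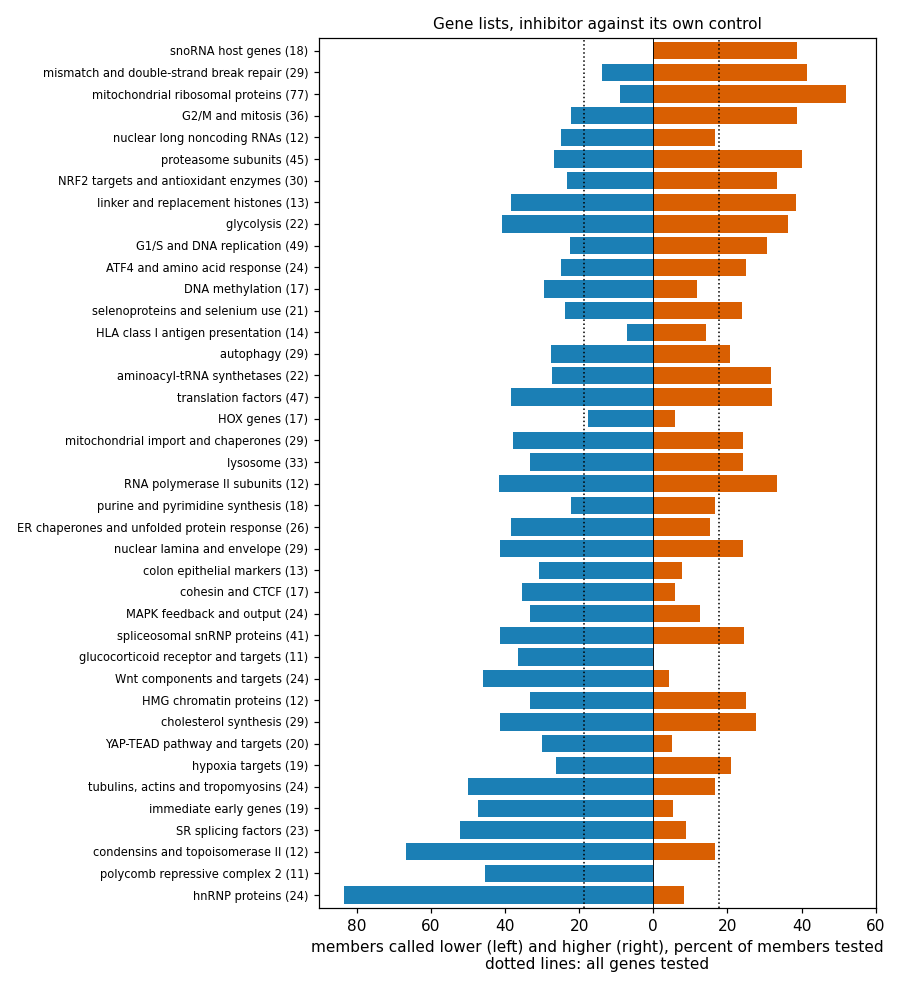
Percent of the tested members of each gene list called lower (left, blue) and higher (right, orange) with the inhibitor against its own control, with the number tested in brackets. Dotted lines mark the 18.7% and 17.7% of all genes tested, and lists are ordered by their median log2 difference, from hnRNP proteins at the bottom to snoRNA host genes at the top.

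Genes that shape chromatin and chromosomes were measured because the series concerns chromosome folding. Cohesin holds sister chromatids together and extrudes loops that stop at CTCF. Of 17 cohesin genes and regulators, 6 were called lower, 1 higher and 10 not, with a median of -0.10. The share called, 41.2%, lay near the 36.5% of all genes, and their median was, against the siRNA controls, -0.01. SMC3 was at 36.7 and 36.4 FPKM in inhibitor controls and at 20.1 and 21.5 with the inhibitor (log2 -0.79 ± 0.06, limma adjusted p = 5.57e-05). CTCF was at 24.9 and 25.9 FPKM against 14.7 and 14.9 (-0.74), and SMC1A differed by -1.08. In the siRNA controls SMC3 was at 19.7 and 19.2 FPKM and CTCF at 14.5 and 15.5, so the inhibitor libraries differed from them by 0.09 and -0.02. RAD21, the cohesin kleisin, was at 0.12 against the inhibitor controls and did not pass (adjusted p = 0.101).

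Of 12 genes for condensins, topoisomerase II and associated proteins, which compact mitotic chromosomes, 8 were lower and 2 higher, with a median of -0.32. Without treated 2, 5 were lower, and 1 was higher without each of the 4 libraries. The condensin subunits NCAPH and NCAPD2 differed by -0.88 and -0.83, and NCAPD3 by -0.47. Polycomb repressive complex 2 writes the silencing mark on lysine 27 of histone H3. Of its 11 genes 5 were lower and none higher, with a median of -0.36, and 3 were lower without control 2. EZH2, the catalytic subunit, was at 26.3 and 27.4 FPKM against 19.04 and 17.9 (log2 -0.51), AEBP2 differed by -0.97 and RBBP4 by -0.39. With the siRNA controls as reference their medians were 0.03 and 0.04.

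Of 17 genes of DNA methylation 5 were lower and 2 higher, with a median of 0.03, and 3 were lower without control 2 or treated 2. The higher count was 1 without control 1 or treated 1 and 0 without treated 2. UHRF1, which brings DNMT1 to replicated DNA, was at 41.0 and 35.6 FPKM in inhibitor controls and at 20.8 and 20 with the inhibitor (log2 -0.87 ± 0.09). The de novo methyltransferase DNMT3A, at 2.85 and 3.16 FPKM against 1.43 and 1.02, differed by -0.86, and the methyl-CpG reader MBD2 by -0.70. For DNMT3A the confidence bounds implied as few as 3.24 fragments in a library. The call of MBD2 was lost from the first run alone (-0.34, adjusted p = 0.214) and with no filter (adjusted p = 0.054). The lists of 13 linker and replacement histones (5 lower, 5 higher) and 12 HMG proteins (4 lower, 3 higher) had no common direction. Beside H1F0, the linker histone HIST1H1E was higher by 0.39 and the replacement histone gene H3F3B by 0.29. HMGA1 differed by -0.40, HMGXB4 by -0.90 and HMGN3 by 0.42. Histones called lower numbered 2 without control 2 or treated 1 and 3 without treated 2, and those called higher numbered 3 without control 1, control 2 or treated 2. With FPKM as deposited 3 histones were higher and 2 lower, no gene of DNA methylation was higher, and H3F3B was not called (0.28, adjusted p = 0.118). Of the DNA methylation genes 41.2% were called, beside 36.5% of all genes. The medians of the 3 lists against the siRNA controls, in the order given, were -0.01, 0.03 and 0.03.

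At the nuclear envelope and its pores 12 of 29 genes were lower and 7 higher, with a median of -0.08. Emerin (EMD) differed by -0.68, beside BANF1, and TMPO, the lamina-associated LAP2, was higher by 0.52. The lower count was 7 without control 1 or treated 2, and the higher count was 4 without control 1 or treated 1. RNA polymerase II itself was split, with 5 of 12 subunits lower and 4 higher. POLR2F was at 74.6 and 71.9 FPKM in inhibitor controls and 45.1 and 48.5 with the inhibitor (log2 -0.64), POLR2D differed by -0.65 and POLR2K by 0.53. The lower count was 3 without treated 1, and the higher count was 2 without control 1 or control 2 and 1 without treated 2. As deposited, 4 envelope genes and 1 polymerase subunit were higher. Both lists had medians near 0 against the siRNA controls, -0.05 and -0.07.

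Genes of protein synthesis and breakdown gave small medians with a few distant members. Of 77 mitochondrial ribosomal proteins, which translate the mitochondrial genome, 40 were called higher and 7 lower, with a median of 0.22. The count called higher was 25 without treated 2 and 18 with FPKM as deposited. MRPS30 was at 51.0 and 51.7 FPKM in inhibitor controls and at 71.5 and 72.4 with the inhibitor (log2 0.48 ± 0.05, limma adjusted p = 0.000257). In the other direction MRPL12 was at 59.8 and 41.5 FPKM against 8.21 and 9.55 (-2.37) and MRPS6 at 25.5 and 23.8 against 8.70 and 9.48 (-1.35). The siRNA controls were at 74.4 and 69.7 FPKM for MRPS30 and at 10.1 and 13.5 for MRPL12. The list's median against them was -0.08, on the other side of 0.

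The proteasome degrades ubiquitin-marked proteins. Of 45 subunits and assembly factors 18 were higher and 12 lower, with a median of 0.09, and 10 were higher without control 1 and 9 without treated 2. Counted as deposited, 5 were higher and 11 lower, and their median was, against the siRNA controls, -0.05. Beside PSMC5, the base and lid subunits PSMD2 and PSMD12 differed by -1.05 and -0.99. PSMD2 was at 164 and 157 FPKM in inhibitor controls, 76.6 and 77.4 with the inhibitor and 72.7 and 79.9 in the siRNA controls. Among 47 translation factors 18 were lower and 15 higher, with a median of -0.02, and these numbered 11 and 9 without control 1, with 8 higher without treated 2 and 5 as deposited. Their median against the siRNA controls was -0.04. The poly(A)-binding protein PABPC1 was at 385 and 332 FPKM against 148 and 143 (log2 -1.29), EIF5B differed by -1.60 and EIF5A by -0.66. PABPC1 was at 180 and 187 FPKM in the siRNA controls, a difference of -0.34 that did not pass (adjusted p = 0.151).

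Of 22 aminoacyl-tRNA synthetases and partners 7 were higher and 6 lower, with AARS at -1.15, RARS at 0.59 and IARS at 0.39. Of 29 genes for mitochondrial import and chaperones 11 were lower and 7 higher, with TIMM13 at -0.54, TOMM20 at -0.52 and TOMM5 at 0.41. In the endoplasmic reticulum, 10 of 26 chaperones and genes of the unfolded protein response were lower and 4 higher. HSPA5, the chaperone BiP, was at 66.9 and 48.6 FPKM in inhibitor controls, 11.3 and 12.4 with the inhibitor and 14.0 and 14.7 in the siRNA controls (log2 -2.17 ± 0.13 against its own control, limma adjusted p = 1.64e-05). HSP90B1 differed by -0.41 and PDIA3 by -0.37. Reticulum genes called lower numbered 5 without treated 1 and 6 without treated 2, and those called higher 1 without control 1 or control 2 and 0 without treated 1 or treated 2. Import genes called lower numbered 7 without treated 1 and those called higher 4 without control 1 or treated 2, and synthetases called higher numbered 4 without treated 1. Counted as deposited, 4 synthetases were higher and 5 lower, 2 import genes were higher and no reticulum gene was. The medians of the 3 lists against the siRNA controls, in the order given, were -0.09, -0.05 and 0.01.

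Metabolic lists were split in the same way. Cholesterol is made in many steps under the control of SREBP factors. Of 29 genes 12 were lower and 8 higher, with a median of -0.15 against the inhibitor controls and 0.09 against the siRNA controls. MSMO1 and CYP51A1 were higher, while ACACA, which commits acetyl-CoA to fatty acids, was at 29.2 and 31.4 FPKM against 18.7 and 19.3 (log2 -0.65). Of 22 glycolysis genes 9 were lower and 8 higher. LDHA, which makes lactate, was at 397 and 337 FPKM in inhibitor controls and at 173 and 183 with the inhibitor (log2 -1.03 ± 0.08, limma adjusted p = 4.37e-05). GPI differed by -0.77 and HK2, the inducible hexokinase, by -1.24. LDHA was at 193 and 213 FPKM in the siRNA controls, a difference of -0.19. The glycolysis median was 0.05, and -0.02 after quantile normalisation. Glycolysis genes called higher numbered 4 without control 1, 5 without treated 2 and 2 with FPKM as deposited, and their median was, against the siRNA controls, 0.01.

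Of 19 hypoxia targets and regulators 5 were lower and 4 higher, with KDM3A at -0.60, BHLHE40 at -0.55 and HIF1A at 0.31, and 3 were lower without control 1, treated 1 or treated 2. Of 30 NRF2 targets and antioxidant enzymes 10 were higher and 7 lower, but 2 and 5 with FPKM as deposited and 8 and 9 after quantile normalisation. PRDX4, a peroxiredoxin of the reticulum, was at 97.1 and 96.3 FPKM against 143 and 146 (log2 0.57), whereas PGD of the pentose phosphate pathway differed by -1.34. The 24 genes of ATF4 and the amino acid response had 6 lower and 6 higher, with PHGDH, the entry into serine synthesis, at -0.98, SLC1A5 at -0.44 and MTHFD2 at 0.37. Of 18 genes of purine and pyrimidine synthesis 4 were lower and 3 higher, with CTPS1 at -1.05, CAD at -1.10 and ADSL at 0.22, and 1 was higher without treated 2. With FPKM as deposited the calls of HIF1A (0.29, adjusted p = 0.0512) and ADSL (0.21, 0.171) were lost, and 2 hypoxia genes and none of the purine and pyrimidine genes were higher. After quantile normalisation 5 hypoxia genes were higher and 4 lower. Of the purine and pyrimidine genes 38.9% were called, beside 36.5% of all genes. The medians of the 4 lists against the siRNA controls, in the order given, were 0.05, -0.03, -0.11 and -0.08.

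Among 21 selenoproteins and genes of selenium use, 5 were lower and 5 higher. SEPHS2, which makes the selenium donor, was at 10.1 and 11.01 FPKM in inhibitor controls, 1.11 and 1.44 with the inhibitor and 1.08 and 1.07 in the siRNA controls (log2 -2.35 ± 0.13, limma adjusted p = 1.05e-05). MSRB1 differed by -1.16 and the elongation factor EEFSEC by -1.12. The higher count was 2 without control 1 or treated 2 and 3 without control 2 or treated 1. Of 29 autophagy genes 8 were lower and 6 higher, and the first count was 5 without control 1 or control 2, 3 without treated 1 and 4 without treated 2, the second 3 without control 1. MAP1LC3B, a protein of the autophagosome membrane, differed by -1.01, ATG9A by -0.61 and BNIP3 by 0.39. Of 33 lysosome genes 11 were lower and 8 higher, and the lower ones numbered 7 without control 1 or treated 1 and 6 without control 2 or treated 2. The higher ones numbered 3 without control 1 and 4 without treated 2. The protease CTSZ differed by -0.93, PSAP by -0.50 and CTSC by 0.39, the last not called from the first run alone (0.23, adjusted p = 0.0872). With FPKM as deposited 1 autophagy gene and 2 lysosome genes were higher and 3 selenium genes were. After quantile normalisation 8 autophagy genes were higher and 7 lower, and 8 lysosome genes each way. The medians of the 3 lists against the siRNA controls, in the order given, were 0.04, 0.01 and -0.01.

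Genes of the cell cycle moved in both directions. Of 49 genes of the G1/S transition and DNA replication 15 were higher and 11 lower, with a median of 0.05, and 7 were higher without control 1 or treated 2 and 7 lower without control 1, treated 1 or treated 2. RRM2, which supplies deoxynucleotides, was at 120 and 121 FPKM in inhibitor controls and at 54.5 and 57.1 with the inhibitor (log2 -1.10 ± 0.06, limma adjusted p = 1.05e-05), and at 52.8 and 58.9 in the siRNA controls. MCM6 of the replicative helicase differed by -1.08, while PCNA was higher by 0.30. Of these genes 5 were higher and 8 lower with FPKM as deposited, and their median was, against the siRNA controls, -0.02. Of 36 genes of G2/M and mitosis 14 were higher and 8 lower, with a median of 0.15, and 9 were higher without control 1 and 7 without treated 2, with 5 lower without control 1, treated 1 or treated 2. The kinase TTK was at 30.0 and 30.2 FPKM against 43.2 and 45.5 (0.54), PLK1 differed by -0.93 and CKAP2 by -0.77. As deposited, 5 of these were higher and 5 lower, and their median was, against the siRNA controls, 0.03.

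Of 29 genes of mismatch and double-strand break repair 12 were higher and 4 lower, with a median of 0.23 against the inhibitor controls and -0.02 against the siRNA controls. CHEK1, the replication checkpoint kinase, was at 40.4 and 39.4 FPKM against 53.5 and 53.5 (log2 0.41), while PRKDC, a kinase of end joining, differed by -0.46. The count called higher was 5 without control 1, 4 without treated 2 and 3 with FPKM as deposited.

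Signalling lists held more members called lower than higher. Of 24 Wnt components and targets 11 were lower and 1 higher, with a median of -0.15. TCF7L2, the main nuclear partner of β-catenin in colon, was at 13.5 and 12.3 FPKM in inhibitor controls, 5.30 and 5.67 with the inhibitor and 5.56 and 5.17 in the siRNA controls (log2 -1.10 ± 0.11, limma adjusted p = 0.000143). The co-receptor LRP5 differed by -0.65 and CCND1, cyclin D1, by -0.43. Of 24 genes of MAPK feedback and output 8 were lower and 3 higher, with MAPK3 at -0.69. Wnt genes called lower numbered 6 without control 1 or treated 2 and 7 without control 2 or treated 1, and none was higher without any 1 of the 4. MAPK genes called lower numbered 5 without control 1 and 4 without treated 2. With FPKM as deposited 7 Wnt genes were lower, as after quantile normalisation, and LRP5 was not called from the first run alone (-0.60, adjusted p = 0.0928). The medians of the 2 lists against the siRNA controls were -0.02 and 0.02.

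Immediate early genes respond within minutes to serum and stress. Of 19 tested, 9 were lower and 1 higher, with a median of -0.26. KLF6 was at 20.9 and 20.5 FPKM against 4.67 and 5.92 (log2 -1.79), IER2 differed by -1.31 and CYR61, also a target of the YAP pathway, by -1.18. JUNB was higher by 0.52. Of 20 YAP-TEAD genes 6 were lower and 1 higher, with MYOF at -0.92 and PTPN14 at -0.73, the latter not called from the second run alone (-0.30, adjusted p = 0.286). Of 24 genes for tubulins, actins, tropomyosins and their partners 12 were lower and 4 higher. ACTG1, cytoplasmic γ-actin, was at 2452 and 2185 FPKM against 1001 and 982 (-1.22), ACTN4 differed by -0.96 and MYH9 by -1.12, and 2 of this list were higher without control 1 or treated 1. Of 11 genes for the glucocorticoid receptor, its chaperones and targets 4 were lower and none higher, with FKBP5 at -2.32, PTGES3 at -1.13 and MT2A at -0.36. The shares called of the YAP-TEAD and glucocorticoid lists, 35% and 36.4%, were near the 36.5% of all genes. With the siRNA controls as reference the medians of the 4 lists lay between -0.08 and 0.08.

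Genes that G9a is known to keep silent in other settings were mostly not expressed. Of 35 germline and cancer-testis genes 24 stayed under 0.1 FPKM in every library and 3 could be tested. MAGEA12 was at 45.2 and 49.4 FPKM in inhibitor controls and at 56.5 and 60.6 with the inhibitor (log2 0.30, limma adjusted p = 0.0118), and MAGEB2 differed by 0.18 (adjusted p = 0.0421). The call of MAGEA12 was lost without inhibitor control replicate 1 (0.24) or inhibitor replicate 2 (0.25), and that of MAGEB2 without any 1 of the 4 libraries (0.13 to 0.24). In the siRNA controls MAGEA12 was at 59.9 and 54.2 FPKM and overlapped the inhibitor libraries. With FPKM as deposited or no filter neither was called. PRAME was at -0.14 and did not pass. None of 55 clustered protocadherins reached the filter, and 49 stayed under 0.1 FPKM throughout. Their summed level was 1.46 to 1.84 FPKM in inhibitor controls and 1.46 to 1.74 with the inhibitor.

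Of 17 HOX genes tested 3 were lower and 1 higher, 23.5% called beside 36.5% of all genes, and 1 was lower and none higher without any 1 of the 4 libraries. HOXA7 differed by -0.41, HOXA4 by -0.51 and HOXA10 by -0.29, and each call was lost without 2 or more of the single libraries, with adjusted p up to 0.169, 0.165 and 0.253. None of the 3 was called with no filter or from the first run alone. The median of HOX genes was -0.06 against the siRNA controls. In class I antigen presentation 2 of 14 genes were higher and 1 lower, 21.4% called, again under the 36.5% of all genes, with a median of 0.01 and of 0.04 against the siRNA controls. B2M, the light chain of class I molecules, was at 217 and 223 FPKM in inhibitor controls, 296 and 323 with the inhibitor and 275 and 244 in the siRNA controls (log2 0.49 ± 0.07, limma adjusted p = 0.000643). The higher count was 1 without each of the 4 libraries. TAPBP, at -0.45, was called without control 2 and not without control 1 (-0.28), treated 1 (-0.48) or treated 2 (-0.42).

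Of 13 colon epithelial markers tested 4 were lower and 1 higher, and 2 were lower without control 2, treated 1 or treated 2. The share called was 38.5%, beside 36.5% of all genes. The tight-junction protein TJP1 was at 21.7 and 22.3 FPKM against 12.1 and 11.4 (log2 -0.85), and KRT8 at 257 and 255 against 190 and 195 (-0.41). KRT19 was higher by 0.21, a call lost without inhibitor control replicate 1 (0.18) or inhibitor replicate 2 (0.19). Of the 5 fibroblast and mesenchymal markers tested S100A4 was higher and SNAI2 lower by -0.41, the latter not called without any 1 of the 4 libraries (-0.33 to -0.48). KRT19 was not called with FPKM as deposited (0.19, adjusted p = 0.22). Against the siRNA controls the epithelial list had a median of 0.16, on the other side of its -0.09 against the inhibitor controls, with KRT8 at 0.19 and TJP1 at 0.05. In bulk RNA, fewer cells of a type and less RNA per cell cannot be told apart.

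Genes in which the inhibitor libraries lay on one side of all 6 others were fewer than for any other group. Both inhibitor libraries lay above the other 6 in 449 genes (3.5%) and below them in 426 (3.32%). The same shares were 25.8% and 25.8% for the inhibitor controls, 12.2% and 12.6% for the siRNA libraries and 4.75% and 3.55% for the siRNA controls. The genes named next are the extremes of a ranking and are given as a description. Of the genes called against the inhibitor controls, 178 were above (1.39% of genes tested) and 188 below (1.46%), together 7.81% of called genes. The first count was 100 without inhibitor control replicate 1, and the second was 286 without inhibitor replicate 1 and 40 with FPKM as deposited. These genes were ranked by the smaller of their differences from the 2 control groups, at a mean of at least 2 FPKM, and the first 10 in each direction are named here.

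The 10 higher genes were SNORD3B-1, SNORD3C, CTD-2651B20.7, IMMP2L, ALCAM, S100A4, S100A6, FBXL2, WDR78 and NR2F1-AS1. In all of them except S100A4 and NR2F1-AS1 both siRNA libraries also lay above every control library. S100A4 and S100A6 encode small calcium-binding proteins, which modulate the cytoskeleton and cell movement, and lie within one cluster of S100 genes on chromosome 1 (S100A4 at 153516089 to 153522612 and S100A6 at 153507075 to 153508720 in hg19). S100A4 was at 56.3 and 52.8 FPKM in inhibitor controls, 74.7 and 77.8 with the inhibitor, 47.2 and 49.2 in the siRNA controls and 50.4 and 46.8 with the siRNA. It was higher by 0.48 ± 0.06 against its own control (SE, limma adjusted p = 0.000533) and by 0.65 ± 0.06 against the siRNA controls (adjusted p = 0.00958). The second call was lost without inhibitor replicate 1 (0.68, adjusted p = 0.0633), inhibitor replicate 2 (0.62, 0.128) or siRNA control replicate 2 (0.68, 0.0792), with no filter (0.257) and from the first run alone (0.59, 0.181).

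S100A6 was at 473 and 488 FPKM in inhibitor controls, 702 and 734 with the inhibitor, 550 and 509 in the siRNA controls and 682 and 616 with the siRNA. It was higher by 0.58 ± 0.06 (limma adjusted p = 0.000266) and by 0.44 against the siRNA controls, which did not pass (adjusted p = 0.0594). The rest of the cluster did not move as one, by members chosen after their values were seen. S100A13 was called higher by 0.52 and S100A10 and S100A11 lower by -0.94 and -0.24 against the inhibitor controls, while S100A2, S100A3, S100A14 and S100A16 lay between -0.23 and 0.23 and did not pass.

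The start regions of these 2 genes and of FGFBP1 are shown as 3 examples of genes whose inhibitor libraries lay above both control groups. They were chosen after their values were seen, and S100A6 did not pass against the siRNA controls. They are RefSeq windows from 250 bases before to 50 after the start, on the minus strand of GRCh38.p14, a later build than the hg19 of the files. S100A4 is at chr1:153545757-153546056, S100A6 at chr1:153535942-153536241 and FGFBP1 at chr4:15938691-15938990. Capitals mark matches, on either strand, to a TATA box (TATAAA or TTTATA), a GC box (GGGCGG or CCGCCC) or a CCAAT box (CCAAT or ATTGG).
S100A4: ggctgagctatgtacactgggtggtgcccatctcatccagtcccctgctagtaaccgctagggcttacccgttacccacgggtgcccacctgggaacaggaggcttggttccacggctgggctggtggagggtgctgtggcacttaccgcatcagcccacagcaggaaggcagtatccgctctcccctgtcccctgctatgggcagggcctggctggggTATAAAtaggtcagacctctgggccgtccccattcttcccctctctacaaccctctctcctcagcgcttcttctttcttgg
S100A6: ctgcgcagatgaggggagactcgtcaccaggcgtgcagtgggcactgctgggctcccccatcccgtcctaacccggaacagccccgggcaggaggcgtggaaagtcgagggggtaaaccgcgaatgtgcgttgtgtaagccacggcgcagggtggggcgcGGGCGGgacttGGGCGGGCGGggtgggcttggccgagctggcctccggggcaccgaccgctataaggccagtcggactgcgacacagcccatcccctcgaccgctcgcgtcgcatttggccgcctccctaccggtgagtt
FGFBP1: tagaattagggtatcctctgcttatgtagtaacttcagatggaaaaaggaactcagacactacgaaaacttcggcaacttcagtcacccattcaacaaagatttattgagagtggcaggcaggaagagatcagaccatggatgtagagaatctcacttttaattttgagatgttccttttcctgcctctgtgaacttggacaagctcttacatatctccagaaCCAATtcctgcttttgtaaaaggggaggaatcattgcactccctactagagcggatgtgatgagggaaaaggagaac
The S100A4 window holds 1 TATA box and 8 CpG dinucleotides, S100A6 3 GC boxes, of which a pair overlap, and 31 CpG, and FGFBP1 1 CCAAT box and 3 CpG. Over 35116 RefSeq promoters of the same length, 11.5% hold the TATA box, 45% the GC box and 34.6% the CCAAT box, and the median number of CpG is 14. The 3 windows share none of the 3 motifs, and a match is a description of letters, not of a bound site.

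FGFBP1, which carries fibroblast growth factors outside the cell (chromosome 4, 15937192 to 15940363 in hg19), was at 14.2 and 14.6 FPKM in inhibitor controls and at 24.3 and 25.7 with the inhibitor. The siRNA controls were at 15.0 and 16.4 FPKM and the siRNA libraries at 26.9 and 24.8, so all 4 treated libraries lay above all 4 controls. It was higher by 0.76 ± 0.07 against its own control (SE, limma adjusted p = 0.000154) and by 0.64 against the siRNA controls (adjusted p = 0.0274). The second call was lost without inhibitor replicate 1 (0.68, adjusted p = 0.147), inhibitor replicate 2 (0.61, 0.252) or siRNA control replicate 2 (0.70, 0.0792), with no filter (0.257) and from each run alone (0.186 and 0.114).

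KIAA0101, a PCNA-binding factor, and ANKRD10-IT1, an intronic noncoding RNA, are the other 2 genes called higher against both control groups, and were chosen after their values were seen. KIAA0101 was at 59.3 and 59.3 FPKM in inhibitor controls, 70.8 and 73.9 with the inhibitor, 44.0 and 39.6 in the siRNA controls and 69.1 and 61.3 with the siRNA. It differed by 0.28 (limma adjusted p = 0.0146) and 0.78 (adjusted p = 0.00958) from the 2 control groups. ANKRD10-IT1 was at 7.39 and 7.09 FPKM, 10.6 and 9.15, 4.22 and 3.33, and 9.65 and 11.4 in the same order. It differed by 0.40 (adjusted p = 0.0327) and 1.19 (adjusted p = 0.0147). In both genes the 4 treated libraries lay above the 4 controls. Against the inhibitor controls KIAA0101 was called without inhibitor replicate 1 (0.31) and not without any other single library (0.25 to 0.28), and ANKRD10-IT1 was not called without any 1 of the 4 (0.30 to 0.49). Against the siRNA controls both calls were lost without either inhibitor library or siRNA control replicate 2, with adjusted p of 0.0633 to 0.147. From the second run alone ANKRD10-IT1 was at 0.08 against the inhibitor controls (adjusted p = 0.73), and neither gene was called against them with FPKM as deposited or no filter.

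SNORD3B-1 and SNORD3C are copies of the U3 small nucleolar RNA, which guides the first cuts of ribosomal RNA, and reads may be split among such copies. SNORD3C was at 1459 and 3125 FPKM in inhibitor controls, 4096 and 4663 with the inhibitor and 1582 and 2251 in the siRNA controls. Its difference of 1.03 (limma adjusted p = 0.0225) was 0.48 without inhibitor control replicate 1 and 1.58 without inhibitor control replicate 2, and it was not called without inhibitor control replicate 1 (adjusted p = 0.0792), inhibitor replicate 1 (0.0603) or inhibitor replicate 2 (0.114). SNORD3B-1, at 9.02 and 21.5 FPKM against 56.0 and 44.0, differed by 1.76, and by 1.17 without inhibitor control replicate 1. It was not called from the second run alone (0.45, adjusted p = 0.673) or with no filter (0.0508), and SNORD3C was not called with no filter (0.18). The cell adhesion molecule ALCAM was at 12.4 and 11.8 FPKM in inhibitor controls and at 18.5 and 17.5 with the inhibitor (log2 0.54, limma adjusted p = 0.000640). The siRNA controls were at 12.9 and 12.2 FPKM (0.49 against them, adjusted p = 0.0594). With the siRNA ALCAM was at 16.1 and 15.9 FPKM, SNORD3C at 3327 and 3298 and SNORD3B-1 at 30.1 and 38.1. IMMP2L, a protease of the inner mitochondrial membrane, differed by 0.54 and 0.49 and WDR78 by 0.64 and 0.43. FBXL2 and NR2F1-AS1, at 0.48 and 0.50, were not called without at least 3 of the 4 libraries in turn, with adjusted p up to 0.135 and 0.152 in those fits and 0.331 and 0.362 from the first run alone. CTD-2651B20.7 (0.60, adjusted p = 0.06) was not called from the first run alone, nor IMMP2L (0.42, 0.0541) from the second.

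The 10 lower genes were FAM160A1, RPAP1, GTF2IRD1, POGZ, RPA1, PTBP1, DIAPH1, LSM12P1, NMT1 and SPEN. In RPAP1, RPA1, PTBP1, DIAPH1, NMT1 and SPEN both siRNA libraries also lay below every control library. RPA1, which coats single-stranded DNA, was at 47.1 and 38.7 FPKM in inhibitor controls, 8.08 and 8.27 with the inhibitor, 10.1 and 13.3 in the siRNA controls and 8.89 and 8.95 with the siRNA. It differed by -2.25 ± 0.13 from its own control (SE, limma adjusted p = 1.06e-05) and by -0.46 from the siRNA controls (adjusted p = 0.232). PTBP1, a splicing repressor, was at 138 and 120 FPKM, 78.6 and 76.3, 97.3 and 115, and 85.0 and 88.4 in the same order, with differences of -0.73 and -0.44. POGZ, a zinc finger protein that binds heterochromatin protein HP1, was at 13.8 and 14.2 FPKM in inhibitor controls, 7.80 and 8.88 with the inhibitor, 11.1 and 12.8 in the siRNA controls and 12.1 and 13.6 with the siRNA. Its differences were -0.69 (adjusted p = 0.000969) and -0.47 (adjusted p = 0.151).

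The formin DIAPH1, which nucleates actin filaments, differed by -0.88 from the inhibitor controls and by -0.44 from the siRNA controls. The polymerase-associated protein RPAP1 differed by -0.64 and -0.52 and the transcription factor GTF2IRD1 by -0.95 and -0.52. NMT1, which attaches myristate to proteins, was at 74.7 and 73.9 FPKM in inhibitor controls, 55.3 and 55.3 with the inhibitor and 77.2 and 93.1 in the siRNA controls. Its differences were -0.42 (limma adjusted p = 0.00341) and -0.61 (adjusted p = 0.0507). None of these 10 genes passed against the siRNA controls. FAM160A1, LSM12P1 and SPEN, a corepressor, differed by -0.58, -0.55 and -0.45 from the inhibitor controls, and their calls were lost without inhibitor replicate 2 (adjusted p of 0.0752, 0.0521 and 0.0934) and without at least 1 other library. LSM12P1 was at -0.17 from the first run alone (adjusted p = 0.376) and FAM160A1 at -0.32 from the second (0.519).

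**Figure D4:**
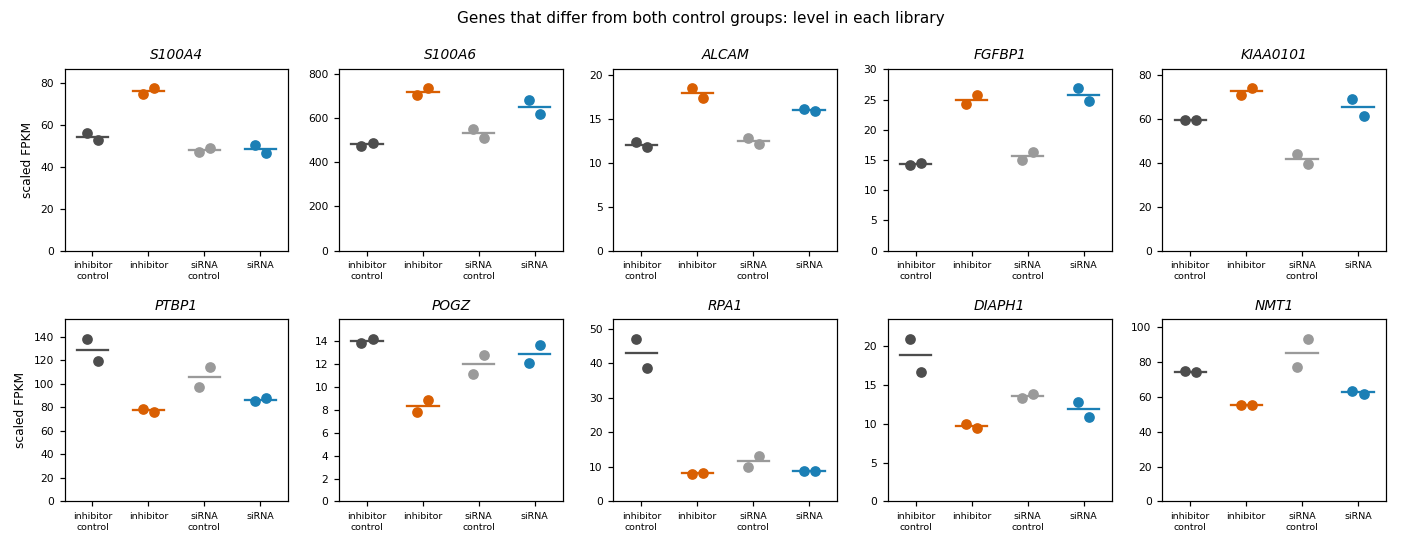
Scaled FPKM of 10 genes in each of the 8 libraries, with bars at the mean of the 2 libraries of a group. The inhibitor libraries lie above both control groups in the top row and below both in the bottom row. In S100A6, ALCAM, FGFBP1 and KIAA0101 both siRNA libraries also lie above every control library. In PTBP1, RPA1, DIAPH1 and NMT1 both lie below every control library.

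Genes called higher and genes called lower differed in features of sequence and level that no list used. GC content of the longest GENCODE 29 transcript, available for 97.9% of genes, had a median of 43.3% in genes called higher and 51.5% in genes called lower, beside 48.0% over all. From the lowest to the highest quintile of GC the share called higher went from 30.4% to 8.23%, and the share called lower from 11.7% to 22.4%, with 25.6% in the quintile next to the highest. Over 12574 genes Spearman's rho between GC and the log2 difference was -0.26 against the inhibitor controls and -0.06 against the siRNA controls. Genes in one library share its depth and composition, so these are descriptions of the libraries.

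Transcript length had the same trend. The share called higher went from 25.6% in the shortest quintile to 11.1% in the longest, and the share called lower from 10.9% to 23.5% (rho -0.21, and 0.06 against the siRNA controls). By mean level, 3.11% were called higher in the lowest quintile and 42.1% in the highest, and 9.58% and 20.2% were called lower. All calls together made up 12.7% and 62.3% of these quintiles. Processed pseudogenes, which have no introns and can take reads from their parent genes, had a median log2 difference of 0.24 over 548 genes, and 25.0% were called higher and 4.74% lower. Against the siRNA controls their median was -0.22, in the other direction. By chromosome, the share called lower was highest for the mitochondrial genome, at 91.7% of 12 genes with a median of -1.48, but their median against the siRNA controls was 0.28, in the other direction. Among nuclear chromosomes 17, 21 and 20 had 25.5%, 25.4% and 25.2% called lower, and chromosome 19, rich in GC, had 9.48% called higher and 23.4% lower. The part of GC, length or RNA quality in the differences described above was not tested.

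**Figure D5:**
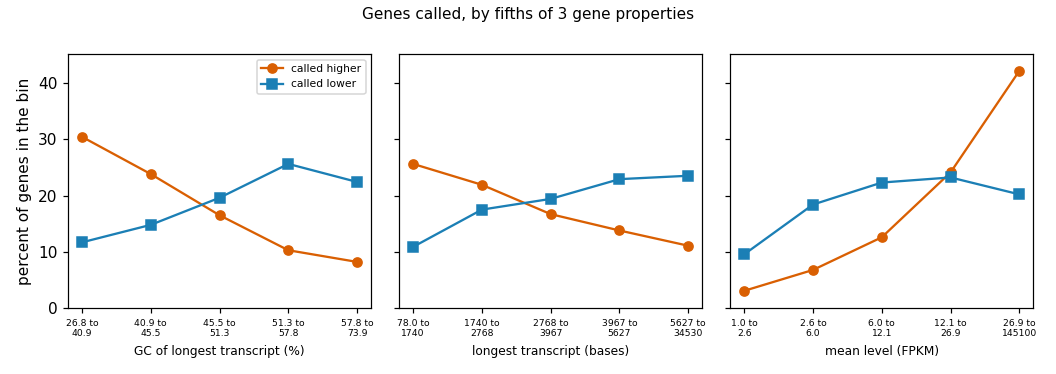
Percent of genes called higher (orange) and lower (blue) with the inhibitor against its own control, in quintiles of transcript GC content (percent), transcript length (bases) and mean level (FPKM). The share called higher falls from 30.4% to 8.23% with GC and rises from 3.11% to 42.1% with level.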

How the data were processed

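Total RNA of HCT116 cells was sequenced with a stranded kit, per the labels' protocols. Cufflinks output that the authors deposited gives FPKM for each gene, by the columns of the files, and STAR 2.3.0e, SAMtools 0.1.19 and build hg19 are named in the submitters' processing notes. For Cufflinks neither version nor settings, and for the counting neither annotation release nor strand, appear in the sources used here, so overlapping, antisense and near-identical genes are uncertain. The 6 highest values took 48.55% to 55.76% of the summed FPKM of a run. The files hold no counts, and depth was implied from the upper confidence bounds, taking them as counting error alone.

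From these files, rows of one gene were summed and the 2 runs of a library averaged, so that n = 2 per group. Median-of-ratios scaling used factors of 0.878 to 1.092. The filter kept genes that averaged 1 FPKM or more and spanned 300 bases or more, without MT-RNR2, which Cufflinks marked in all 16 runs. The 8 libraries entered one limma 3.58.1 fit (R 4.3.3, variance trend) on log2(FPKM + 1), with 4 residual and 5.04 prior degrees of freedom, Benjamini-Hochberg adjustment and two-sided tests. The procedure was tested on simulated data with independent noise and 200 changed genes. That simulation had no control group set apart from the others, so it does not bear on that feature of these data. With 2 libraries a group, the exact permutation test cannot reach 0.05 and was not used.

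Named genes are EHMT2 and EHMT1, the 12 called in each direction with the smallest p at a mean of at least 5 FPKM, up to 3 called members of each list with the smallest p, and the 10 in each direction furthest from both control groups. Other list members are given by value. The members, lists and rules were chosen with earlier results of these data known, and no list was tested. Lists are described by counts and medians beside all genes. Promoter CpG content matched only 73.2% of genes, and nothing is concluded from it. Its Spearman's rho with the log2 difference was -0.10, and -0.03 against the siRNA controls. Values of some list members are not reported here.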

Additional observations from a re-analysis of the deposited data

How the results depend on the processing

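Alternatives for the inhibitor against its own control were a pseudocount of 0.1, no filter, a filter at 5 FPKM, no scaling, quantile normalisation, short genes kept, a fit without the siRNA groups, a replicate block, robust variance moderation, each run alone, each library left out and the siRNA controls as reference. The alternatives for the inhibitor against the siRNA controls and for the genes apart from all others were added after seeing the data. The 4686 called genes (2278 higher, 2408 lower) were 2986 (1381 and 1605) with no filter, 3112 with FPKM as deposited (1083 higher) and 3117 from the first run alone (1446 higher). Leaving out 1 library gave 2670 to 3460 called genes, 1131 to 1602 higher and 1539 to 1858 lower, the lowest without inhibitor replicate 2. With the siRNA controls as reference 5 genes were called, 4 higher and 1 lower.

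Against the siRNA controls, limma called 0 genes with no filter, 23 at 5 FPKM, 32 with FPKM as deposited, 12 with short genes kept, 11 with robust moderation, 1 from the first run, 2 from the second and 0 to 43 without 1 library. In the main fit 1599 genes had an unadjusted p under 0.05. Called genes with the inhibitor apart from all others numbered 40 lower with FPKM as deposited, 125 lower from the second run, and without 1 library 100 to 237 higher and 129 to 286 lower.

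The labels do not say whether same-numbered libraries were made together. Deviations of inhibitor and inhibitor control replicates correlated at 0.048, and over all 6 pairs of groups at -0.098 to 0.048. Such values cannot show that no pairing existed. The replicate block gave 4385 called genes. Of 159 named genes 131 kept direction and call in every setting that tested them with the inhibitor controls as reference. None reversed in these settings. Most were named for a small p in the main fit, so the count does not measure the stability of all called genes. The siRNA controls as reference are not part of that count. The lost calls were most often without a filter, from the first run or without inhibitor replicate 2, with 16 each. The cause of these changes was not tested, apart from the fewer libraries or larger number of genes that a setting has by construction. Genes near 1 FPKM rest on few fragments. The confidence bounds implied as few as 8.61 fragments in a library for EEFSEC, 10.4 for WDR78 and 14.2 for IMMP2L.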
